A study of Mus musculus with 6 samples.

Results

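The 31 genes described here encode the steps by which pyruvate enters mitochondria and is oxidised: the mitochondrial pyruvate carrier, the pyruvate dehydrogenase complex with its kinases and phosphatases, pyruvate carboxylase, and the enzymes of the tricarboxylic acid (TCA) cycle. They were chosen by gene symbol and not by a rule on measured values, though with earlier results of these data known. All 31 were found among the 24470 genes of the deposited count table. All 31 also passed the filter on low counts that left 15577 genes to be tested. RNA-seq of the E12.5 mouse testis was compared between 3 control samples, of genotype Ppp1r3c f/f, and 3 conditional knockout (cKO) samples, of genotype Sf1-Cre Ppp1r3c f/f. Each sample pooled 2 pairs of gonads. Both groups carried the floxed alleles on a C57BL/6 background and differed in the Cre, which is driven by regulatory sequences of Nr5a1 (Sf1) and is active in somatic cells of the gonad, not in germ cells. The comparison asks whether loss of Ppp1r3c, which targets a phosphatase to glycogen and promotes glycogen synthesis, went along with altered transcript levels of the machinery that consumes pyruvate.

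Pyruvate made by glycolysis or from lactate crosses the inner mitochondrial membrane through a carrier of the MPC1 and MPC2 proteins. The pyruvate dehydrogenase complex then converts it to acetyl-CoA. Kinases (PDK) inactivate the complex by phosphorylation, phosphatases (PDP) reactivate it, and pyruvate carboxylase offers a second entry, as oxaloacetate. In the adult testis, Sertoli cells are known to supply lactate to germ cells. Male germ cells of the fetal testis are described as moving from glycolysis to mitochondrial oxidation in this period. A whole-testis library therefore mixes cells that may differ in their use of these enzymes.

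The libraries held 16139487 to 44145158 counts, with control replicate 1 the shallowest. Ppp1r3c, the targeted gene, was at 24.4, 22.1 and 22.9 CPM (counts scaled to the library total with TMM factors) in control replicates 1 to 3 and at 4.71, 5.37 and 5.96 CPM in cKO replicates 1 to 3. The groups did not overlap, and the log2 fold change was -2.11 (edgeR, FDR = 0.000126). Nr5a1, whose regulatory sequences drive the Cre, was called higher in the cKO, with a log2 fold change of 0.66 (edgeR FDR = 0.0401). It was at 371.8, 359.5 and 310.7 CPM in controls and at 511.8, 593.1 and 546.2 CPM in cKO samples. The cause of this difference was not tested. One library stood apart from the rest and, in part, from its testis label: cKO replicate 3 had 379.2 CPM of Xist, the RNA of the inactive X chromosome that XY cells lack, against at most 1.0 CPM in the other 5. It also had 50.9 CPM of the pre-granulosa marker Fst against at most 2.02 CPM, and the 7 pre-granulosa markers summed to 303.8 CPM against 123.3 to 140.1 CPM. Of these markers 6 were fitted higher in the cKO (median log2 fold change 0.70). The 5 fetal Leydig markers, all fitted lower, were lowest in this library at 162.1 CPM, against 238.4 to 434.9 CPM elsewhere. None of the pre-granulosa or Leydig markers was called by edgeR (4 and 0 at an unadjusted p below 0.05), DESeq2 or limma-voom. The Sertoli markers Sox9, Amh and 8 others summed to 1722.1 to 2177.5 CPM in controls and 1628.5 to 2198.3 CPM in cKO samples, and 7 mesonephros markers to 18.1 to 28.0 CPM over all libraries. By edgeR, 4 Sertoli markers were fitted higher in the cKO and 6 lower, with 2 at an unadjusted p below 0.05. Of the 4 mesonephros markers tested, 3 were fitted higher and 1 lower (median log2 fold change 0.52), with 2 at that level. No Sertoli or mesonephros marker was called by edgeR, DESeq2 or limma-voom. The 11 germ cell markers that could be tested were each fitted lower in the cKO, with a median log2 fold change of -0.84. By edgeR none was called at FDR below 0.05, with 9 at an unadjusted p below 0.05, and by limma-voom none was called. DESeq2 called 2 germ cell markers, Dnd1 and Mael. The summed germ cell markers ranged from 588.5 to 968.5 CPM in controls and from 298.3 to 618.6 CPM in cKO samples. In these bulk samples, fewer cells of a type and less RNA per cell cannot be told apart.

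Promoter sequence was examined for the members, since some of them varied together across the libraries. The windows cover the 250 bases before the most upstream RefSeq start site (GRCm38.p6) and were found for 28 of the 31 members, with no window for Idh3a, Pdp1 and Sdhc. The 4 promoters shown were chosen after the values were seen: Dlat and Sucla2, whose levels followed the germ cell markers from library to library, Pdk1, whose deviations from the group means did so but whose levels over all libraries did so less closely, and Pdk2, whose level ran opposite. The windows are chr9:50659781-50660030 on the minus strand for Dlat, chr14:73552536-73552785 on the plus strand for Sucla2, chr2:71872974-71873223 on the plus strand for Pdk1 and chr11:95041372-95041621 on the minus strand for Pdk2. Each is printed 5′ to 3′ in the direction of transcription, and capitals mark matches, on either strand, to the letters searched.
Dlat: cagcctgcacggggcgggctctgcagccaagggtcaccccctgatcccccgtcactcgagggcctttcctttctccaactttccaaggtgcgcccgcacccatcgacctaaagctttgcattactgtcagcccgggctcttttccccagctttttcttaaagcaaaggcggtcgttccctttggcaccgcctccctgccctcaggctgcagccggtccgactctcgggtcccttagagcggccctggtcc
Sucla2: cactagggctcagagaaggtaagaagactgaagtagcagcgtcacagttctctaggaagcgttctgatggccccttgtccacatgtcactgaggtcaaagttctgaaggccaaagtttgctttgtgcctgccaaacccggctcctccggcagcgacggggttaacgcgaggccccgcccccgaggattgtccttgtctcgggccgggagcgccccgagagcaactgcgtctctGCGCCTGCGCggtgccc
Pdk1: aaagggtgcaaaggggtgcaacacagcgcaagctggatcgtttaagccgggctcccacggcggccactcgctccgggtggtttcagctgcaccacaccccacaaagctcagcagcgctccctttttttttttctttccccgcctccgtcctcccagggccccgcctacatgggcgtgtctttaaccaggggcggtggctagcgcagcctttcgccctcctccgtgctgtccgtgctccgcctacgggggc
Pdk2: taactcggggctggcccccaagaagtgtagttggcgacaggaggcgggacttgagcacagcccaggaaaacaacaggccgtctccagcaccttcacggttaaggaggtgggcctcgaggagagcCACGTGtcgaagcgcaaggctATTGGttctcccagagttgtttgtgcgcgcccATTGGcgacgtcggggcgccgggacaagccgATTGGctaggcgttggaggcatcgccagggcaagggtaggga

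The capitals in Sucla2 are a match to the palindromic site of NRF1, a regulator of nuclear genes for mitochondria, searched with its central base free. Those in Pdk2 are 1 match to the E-box CACGTG and 3 matches to the CCAAT box on the opposite strand, read there as ATTGG. Neither the Dlat nor the Pdk1 window held any of the letters searched. Of the 28 members with a window, 3 held the NRF1 site (10.7%: Sdha, Sdhd and Sucla2), against 3.87% of the windows of 27025 genes, taken the same way. The E-box was in 3 (10.7%: Pcx, Pdk2 and Pdp2), against 6.04%. CCAAT was in 18 (64.3%), against 34.53%, and AAGGTCA, the extended half-site bound by NR5A1 and related receptors, was in 0 of 28, against 4.04%. The 27025 genes were not limited to those that passed the filter on low counts, as the members did. Whether the shares differ among the genes that passed was not tested. Counts of 3 or 0 of 28 are too few to be read as a difference. No searched motif contains another. Such matches describe the sequence and do not show binding, and the absence of a match says only that these letters are not in this window.

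Summed over the 31 genes, the level was 3358.4, 3464.1 and 3347.3 CPM in control replicates 1 to 3 and 3353.8, 3290.8 and 3395.8 CPM in cKO replicates 1 to 3. The whole set thus took 0.332% to 0.347% of each library, and the groups overlapped. To compare genes with each other, CPM was divided by exon length in kb. In controls, Idh2, the NADP-dependent isocitrate dehydrogenase of mitochondria, was highest at 218.7 CPM per kb, followed by malate dehydrogenase Mdh2 at 140.1 CPM per kb and the flavoprotein subunit Sdha at 104.1 CPM per kb. The lowest were the kinase Pdk4 at 1.18 CPM per kb, the phosphatase Pdp2 at 1.57 CPM per kb and the carrier gene Mpc1 at 7.48 CPM per kb. Other regulators of pyruvate dehydrogenase were higher, with Pdp1 at 9.66 CPM per kb and the kinase Pdk3 at 27.4 CPM per kb. Within the complex, the E1 beta subunit Pdhb (65.7 CPM per kb) and Dld (54.3 CPM per kb), which is shared with the 2-oxoglutarate dehydrogenase complex, stood above the E2 subunit Dlat (18.1 CPM per kb) and the E3-binding subunit Pdhx (9.66 CPM per kb).

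**Figure D1:**
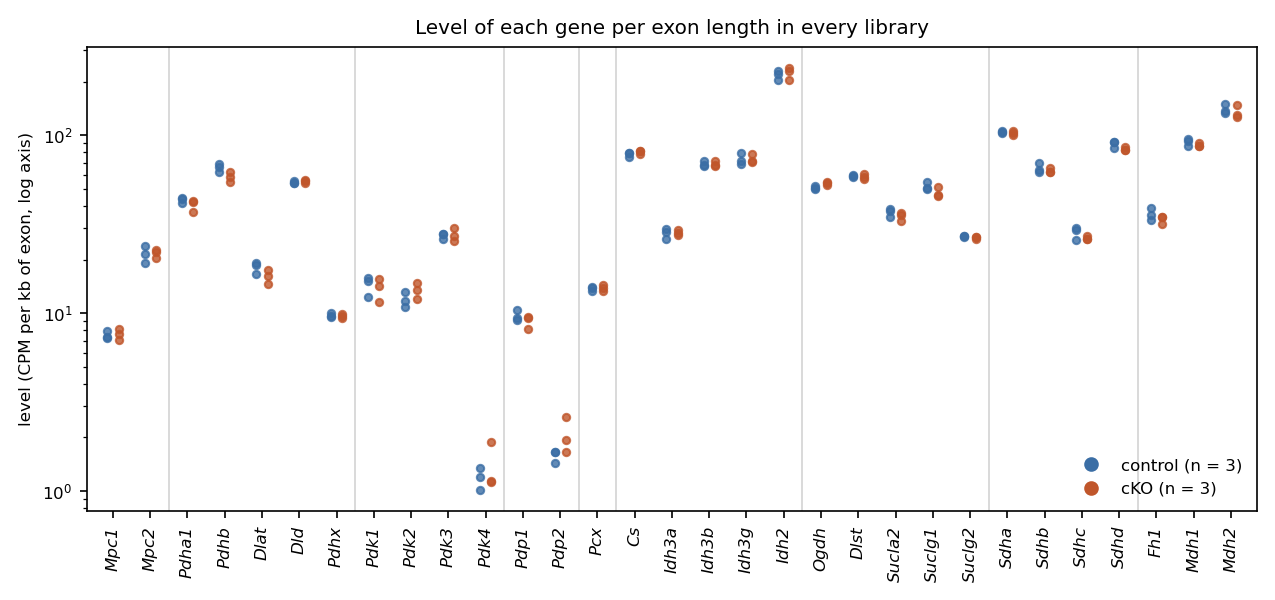
Level of each of the 31 genes in CPM per kb of exon, on a log axis, with one point per library (control and cKO, n = 3 each) and grey lines between the roles. Idh2 sits highest and Pdk4 and Pdp2 lowest, and control and cKO points of a gene lie close together compared with the distance between genes.

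No member passed the test between the groups. By edgeR, 0 of 31 members were called at FDR below 0.05, where 0.0385% of all genes tested were called, and the lowest FDR of a member was 0.396. DESeq2 called 0 of 31 members (0.779% of all genes) and limma-voom 0 of 31 (0.0449% of all genes). At an unadjusted p below 0.05, edgeR gave 2 members, against 11.4% of all genes. Pdhb was the 1 lower in the cKO (5.8% of all genes) and Pdp2 the 1 higher (5.56% of all genes). DESeq2 gave the same 2 at that level (8.25% of all genes). Of the fitted log2 fold changes, 13 were above 0 and 18 below, against 49.1% and 50.9% of all genes, and their median was -0.017 with a range from -0.18 to 0.40. The median of all genes was -0.0034.

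How large a difference the data leave possible is read from the intervals. The median size of the log2 fold change, regardless of sign, was 0.049 for the members and 0.0993 for all genes, and the median standard error was 0.0683 for the members and 0.0953 for all genes. The 95% interval lay within 1.2-fold either way for 23 of 31 members and within 1.5-fold for 29 of 31. The exceptions to the wider bound were the rarer regulators Pdk4 and Pdp2. Counts behind these values ranged from 57 to 17022 per member and library. The samples are pools of embryos, and p-values measure the spread between these pools.

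**Figure D2:**
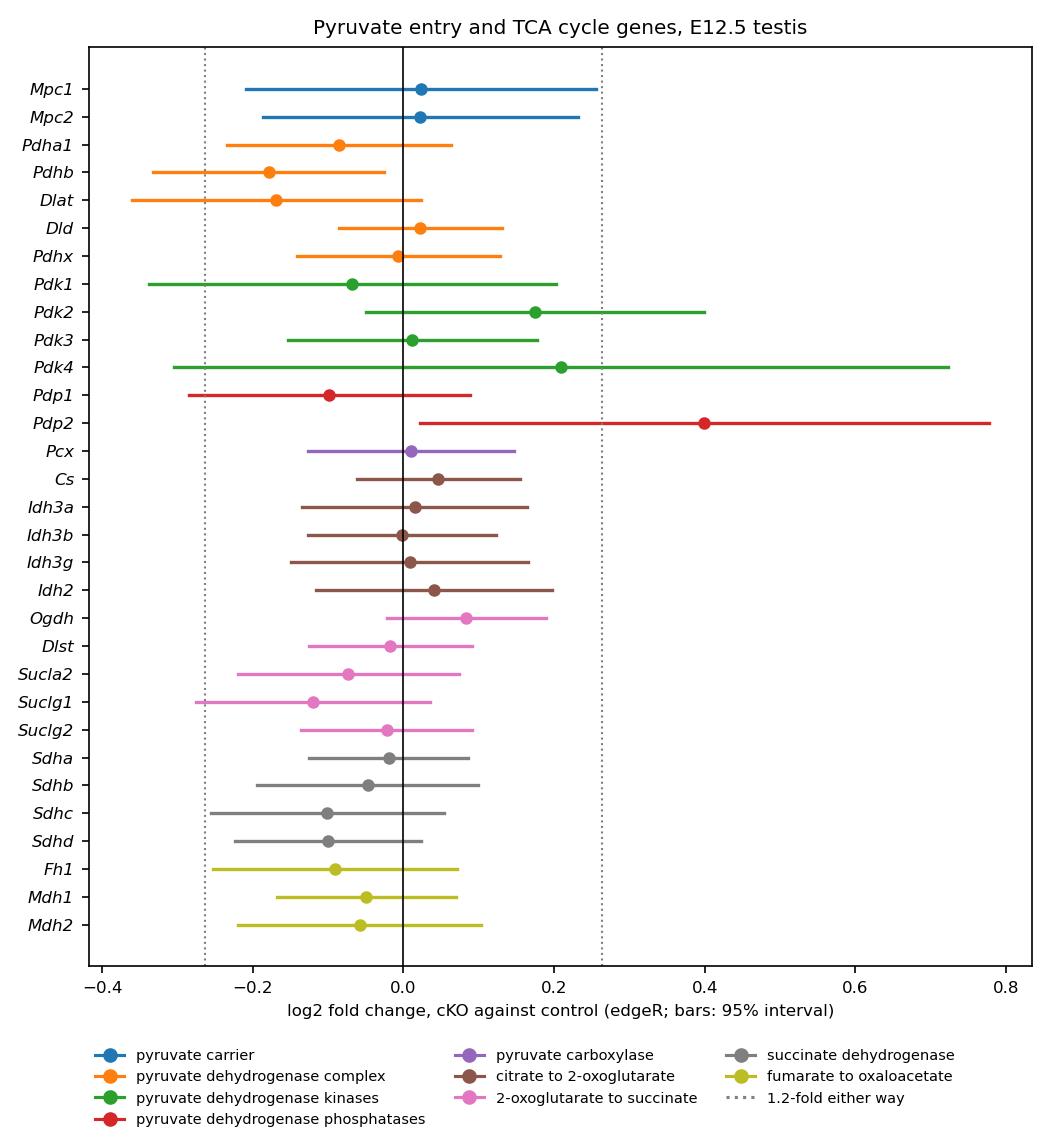
Fitted log2 fold change of cKO against control for each of the 31 genes (points) with its 95% interval (bars), coloured by role, with dotted lines at 1.2-fold either way. Pdk4 and Pdp2 have the widest intervals, and the intervals of Pdhb (below 0) and Pdp2 (above 0) are the ones that leave out 0 before adjustment.

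The genes of the pyruvate carrier, which lets pyruvate into the matrix, differed between the groups by less than the spread between replicates. Mpc1 was at 10.8, 11.6 and 10.6 CPM in controls and at 11.2, 12.0 and 10.4 CPM in cKO samples. Mpc2 was at 24.3, 21.9 and 19.5 CPM in controls and at 20.9, 22.4 and 23.0 CPM in cKO samples. The cKO values of both genes overlapped those of the controls, and the log2 fold changes were 0.0230 and 0.0225 (edgeR FDR = 0.952 for Mpc1 and 0.945 for Mpc2). Of the 100-base stretches of the Mpc1 transcripts, 15.04% also occur in the pseudogene Mpc1-ps, so some of its read pairs could have been assigned elsewhere.

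The core of pyruvate dehydrogenase held the member with the lowest p. Pdhb (chr14:8165991-8172992, minus strand), which encodes the E1 beta subunit of the decarboxylating enzyme, was at 94.1, 104.2 and 100.2 CPM in controls and at 94.2, 87.5 and 82.2 CPM in cKO samples. The highest cKO value was just above the lowest control value, so the groups overlapped by a single pair of libraries. Its log2 fold change was -0.18 with an SE of 0.0683 and a 95% interval from -0.33 to -0.03 (edgeR unadjusted p = 0.0269, FDR = 0.396). Leaving out 1 library in turn moved it between -0.23 and -0.13. Of its 100-base stretches, 10.54% also occur in the pseudogene Gm6123.

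Its partner in the E1 enzyme, Pdha1, had a log2 fold change of -0.09 (FDR = 0.640), and the E2 acetyltransferase Dlat had -0.17 (FDR = 0.480). Dlat, shown in full after its values were seen, was at 66.9, 76.8 and 75.3 CPM in controls and at 71.0, 58.5 and 65.7 CPM in cKO samples. The lowest level was in cKO replicate 2 and the highest in control replicate 2, with the groups overlapping, and the log2 fold change was -0.10 without cKO replicate 2. The remaining subunits were closer to 0, with log2 fold changes of 0.0225 for Dld and -0.0065 for Pdhx. The ends of Pdha1 and Map3k15 overlap on opposite strands, and 12.0% of the 100-base stretches of Pdha1 are shared with Map3k15. The counting used the strand.

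The kinases that shut the complex down were led in abundance by Pdk3. Per kb of exon, Pdk3 made up 49.9% ± 1.35 (SD, n = 3) of the summed kinase level in controls and 49.1% ± 1.17 (SD, n = 3) in cKO samples. Pdk1 made up 26.1% ± 3.21 and 24.4% ± 3.14, Pdk2 21.8% ± 2.22 and 24.0% ± 3.44, and Pdk4 2.15% ± 0.309 and 2.44% ± 0.634 (SD, n = 3 each). The order of the kinases was thus shared by the group means, although Pdk1 and Pdk2 came within the spread of each other.

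Pdk2 (chr11:95026258-95041371, minus strand), the most widely expressed isoform in adult tissues, was at 29.7, 26.4 and 24.4 CPM in controls and at 26.9, 33.3 and 30.4 CPM in cKO samples. Its log2 fold change was 0.17 with a 95% interval from -0.05 to 0.40 (edgeR FDR = 0.527), and it was 0.10 without cKO replicate 2. The groups overlapped, because control replicate 1 was above cKO replicate 1. Pdk1, a target of hypoxia signalling, was at 63.7, 78.3 and 81.2 CPM in controls and at 80.7, 59.8 and 73.1 CPM in cKO samples, with a log2 fold change of -0.07 (edgeR FDR = 0.864). Its spread within each group was wider than the difference between them.

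Pdk3 was at 58.9, 59.3 and 55.6 CPM in controls and at 57.5, 54.1 and 63.5 CPM in cKO samples, with a log2 fold change of 0.012 (edgeR FDR = 0.968). Pdk4, the kinase induced by fasting in many tissues, was at 3.51, 4.16 and 4.66 CPM in controls and at 3.89, 3.98 and 6.56 CPM in cKO samples. The highest value was that of cKO replicate 3, the library with Xist and Fst, and the other cKO values lay inside the control range. The log2 fold change of Pdk4 was 0.21 (edgeR FDR = 0.751) with all libraries and -0.08 without cKO replicate 3. The part of that library's other cell markers in this value was not tested.

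The same library was highest for Pdp2 (chr8:104591468-104596849, plus strand), a phosphatase that reactivates pyruvate dehydrogenase. Pdp2 was at 9.36, 8.13 and 9.37 CPM in controls and at 9.45, 11.0 and 14.9 CPM in cKO samples. Every cKO value was above every control value, by the smallest of margins for cKO replicate 1. The log2 fold change was 0.40 with an SE of 0.168 and a 95% interval from 0.02 to 0.78 (edgeR unadjusted p = 0.0404, FDR = 0.419), and it was 0.19 without cKO replicate 3. Pdp1, the other phosphatase, was at 42.1, 41.5 and 47.1 CPM in controls and at 43.0, 42.4 and 36.7 CPM in cKO samples. Its log2 fold change was -0.10 (edgeR FDR = 0.671), with overlapping groups, and -0.030 without cKO replicate 3.

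**Figure D3:**
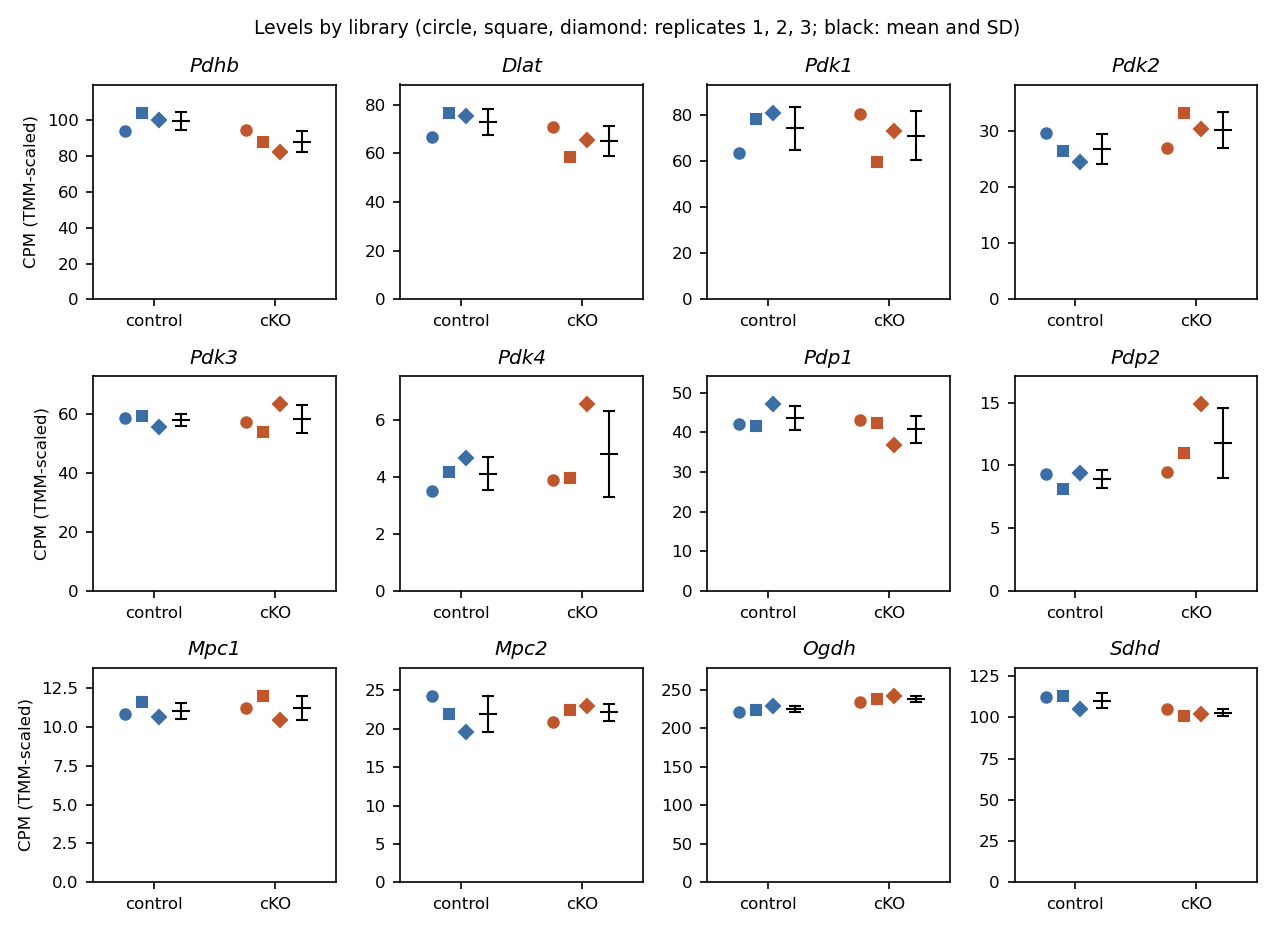
CPM in each library for 12 of the 31 genes, with circles, squares and diamonds for replicates 1, 2 and 3 and, in black, the mean and SD of each group (n = 3). The cKO replicate 3 diamond stands above the rest in Pdk4 and Pdp2, and control and cKO points interleave in most panels.

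Pyruvate carboxylase (Pcx), which feeds oxaloacetate into the cycle, differed by less than the spread between replicates. It was at 56.8, 59.4 and 58.7 CPM in controls and at 58.6, 56.5 and 61.3 CPM in cKO samples. The log2 fold change was 0.010 with a 95% interval from -0.13 to 0.15 (edgeR FDR = 0.968), and the groups overlapped.

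Citrate synthase (Cs), which joins acetyl-CoA to oxaloacetate, had the lowest p of the genes from citrate to 2-oxoglutarate. Cs was at 222.4, 232.6 and 232.2 CPM in controls and at 239.4, 230.9 and 239.7 CPM in cKO samples. With overlapping groups, its log2 fold change was 0.05 (edgeR FDR = 0.735). The subunits of the NAD-dependent isocitrate dehydrogenase were closer to 0 still, at 0.015 for Idh3a, -0.0020 for Idh3b and 0.0083 for Idh3g, and Idh2 was at 0.041. The sign of these isocitrate dehydrogenase genes turned under some of the alternative settings given in the closing section.

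From 2-oxoglutarate to succinate, Ogdh, the decarboxylating subunit of 2-oxoglutarate dehydrogenase (chr11:6291597-6359094, plus strand), separated the groups. It was at 221.7, 223.5 and 229.5 CPM in controls and at 234.0, 238.3 and 242.6 CPM in cKO samples. All cKO values were above all control values, but the difference was small, with a log2 fold change of 0.08, an SE of 0.0469 and a 95% interval from -0.02 to 0.19 (edgeR FDR = 0.522). Its E2 partner Dlst had a log2 fold change of -0.017. The subunits of succinyl-CoA ligase, which makes ATP or GTP directly in the cycle, were at -0.07 for the ADP-specific Sucla2, -0.022 for the GDP-specific Suclg2 and -0.12 for the shared Suclg1. Suclg2 shares 10.41% of its 100-base stretches with the pseudogene Gm15163.

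Ogdh and Pdp2 were the 2 members whose groups did not overlap, where 15.6% of all genes tested did not. Both had the cKO higher, and 8.42% of all genes had every cKO value above every control value. No member had every cKO value below every control value, against 7.17% of all genes. With RLE size factors in place of TMM, the groups of 5 members did not overlap, where 15.9% of all genes did not.

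All genes of succinate dehydrogenase, which is both a cycle enzyme and respiratory complex II, were fitted below 0 without passing the test. Sdhd, a membrane anchor, was at 112.3, 113.2 and 104.8 CPM in controls and at 105.1, 101.1 and 101.8 CPM in cKO samples. A single cKO library, replicate 1, exceeded the lowest control, and the log2 fold change was -0.10 with a 95% interval from -0.22 to 0.02 (edgeR FDR = 0.512). The other anchor, Sdhc, was also at -0.10, the iron-sulfur subunit Sdhb at -0.05 and the flavoprotein Sdha at -0.020.

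The genes from fumarate to oxaloacetate were likewise fitted below 0 without passing the test. Fumarase (Fh1) was at 93.7, 103.1 and 88.3 CPM in controls and at 91.9, 83.9 and 92.0 CPM in cKO samples, with a log2 fold change of -0.09 (edgeR FDR = 0.649) and overlapping groups. The malate dehydrogenases of the cytosol (Mdh1) and of mitochondria (Mdh2) had log2 fold changes of -0.05 and -0.06.

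Genes that stand for each other at a step could shift in proportion without a shift in their sum, so 6 ratios were compared within each library by an exact two-sided permutation test, whose smallest possible p with 3 against 3 samples is 0.1. None reached it. The ratio of Pdp1 to Pdp2 per kb was 5.68, 6.44 and 6.35 in controls and 5.75, 4.87 and 3.1 in cKO samples. It was lowest in cKO replicate 3, and cKO replicate 1 lay within the control range. The mean log2 ratio differed by -0.47 (exact permutation p = 0.2, adjusted over the 6 ratios p = 0.9), and by -0.22 without cKO replicate 3. The ratio of Pdk1 to Pdk3 differed by -0.08, Suclg2 to Sucla2 by 0.05, Mpc1 to Mpc2 by 0.0030, Idh2 to Idh3a by 0.023 and Mdh1 to Mdh2 by 0.011 on the log2 scale, with exact permutation p-values from 0.3 to 0.9 and each 0.9 after adjustment.

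A further 31 genes around the pathway were taken from a list of aconitases and related dehydrogenases, lipoylation factors, assembly factors of succinate dehydrogenase, malic enzymes, carboxykinases and citrate lyase, carriers and shuttle enzymes, and enzymes of glutamine entry. The germ cell isoform Pdha2 had too few counts to be tested. Of the 30 tested, edgeR, DESeq2 and limma-voom each called 0. At an unadjusted p below 0.05 edgeR gave 3 and DESeq2 gave 2, near the shares of 11.4% and 8.25% of all genes. The edgeR genes were all lower in the cKO (5.8% of all genes): Ogdhl, Slc25a13 and Gls2.

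Gls2, a liver-type glutaminase that makes glutamate from glutamine, was at 4.43, 5.32 and 5.37 CPM in controls and at 4.61, 2.59 and 3.51 CPM in cKO samples. Its log2 fold change was -0.50 with an SE of 0.216 (edgeR FDR = 0.428), and it was -0.32 without cKO replicate 2. It overlapped the controls only through cKO replicate 1. Ogdhl, an isoform of the 2-oxoglutarate dehydrogenase subunit, was at 47.2, 53.7 and 59.3 CPM in controls and at 48.0, 41.3 and 46.5 CPM in cKO samples, with a log2 fold change of -0.24 (edgeR FDR = 0.397).

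Slc25a13, an aspartate-glutamate carrier of the malate-aspartate shuttle, was at 44.3, 49.7 and 50.3 CPM in controls and at 43.8, 38.5 and 45.1 CPM in cKO samples, with a log2 fold change of -0.18 (edgeR FDR = 0.439). The genes of lowest p in the other roles were further from the threshold. Their log2 fold changes were 0.20 for the lipoylation factor Lipt2 (edgeR FDR = 0.543, and 0.10 without cKO replicate 3), -0.22 for the assembly factor Sdhaf4 (FDR = 0.472) and 0.12 for the mitochondrial carboxykinase Pck2 (FDR = 0.548). The median log2 fold change of the 30 genes was 0.0036.

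Since germ cell markers varied from library to library as well as between groups, each member was set beside them over the 6 libraries. The germ cell level was the mean log2 CPM of the 11 tested markers, centred on the control mean. It was -0.43, 0.22 and 0.21 in control replicates 1 to 3 and -0.39, -1.35 and -0.69 in cKO replicates 1 to 3. Control replicate 1 was thus about as low as cKO replicate 1, and the library rank of this measure did not simply follow genotype.

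Dlat followed the germ cell level most closely of the members, with r = 0.98 and Spearman rho = 1.0. The exact permutation p over 720 orders of the 6 libraries was 0.00139 for r, the smallest that they can give, and 0.00278 for rho. Adjusted over the 15566 genes correlated this way, the exact permutation p was 0.111 for r and 0.147 for rho, and no gene passed at 0.05. Since even the smallest p that 6 libraries allow did not pass, this outcome says little about the relation. Without the libraries farthest from the median germ cell level, cKO replicate 2 and control replicate 2, r was 0.94. From deviations within the groups, r was 0.99, and 7.44% of all genes had such an r of at least 0.9. Dlat was singled out for its r, so these values describe it and are no further test.

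Pdk2 ran the other way, with r = -0.94 and rho = -0.94 (exact permutation p = 0.00278 and 0.0167, adjusted 0.111 and 0.217). Its r was -0.93 without those libraries and -0.94 from deviations within groups. Sucla2 and Pdha1 each had r = 0.93 and rho = 0.94 (exact permutation p = 0.00694 and 0.0167, adjusted 0.151 and 0.217), and r dropped to 0.75 for Sucla2 and 0.76 for Pdha1 without those libraries. Pdk1 had r = 0.79 and rho = 0.77 (exact permutation p = 0.0694 and 0.103, adjusted 0.333 and 0.397), with 0.99 within groups and 0.50 without those libraries. With 1 library left out at a time, its r was between 0.53 and 0.89. Those libraries hold the lowest and highest germ cell level, so leaving both out narrows the range. The lower r therefore cannot decide whether the relation rested on them.

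Of the 31 members, 3 had r of at least 0.9 (9.68%), where 6.35% of all genes did, and 1 had r of at most -0.9 (3.23%), where 1.74% did. With so few members past either bound, their shares are imprecise and are not read as a difference from all genes. Pdhb had r = 0.82 and rho = 0.94 (exact permutation p = 0.0514 and 0.0167, adjusted 0.293 and 0.217), and r = 0.87 without those libraries. The part of the germ cell share in the values of Pdhb, Dlat and Pdk2 was not tested.

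**Figure D4:**
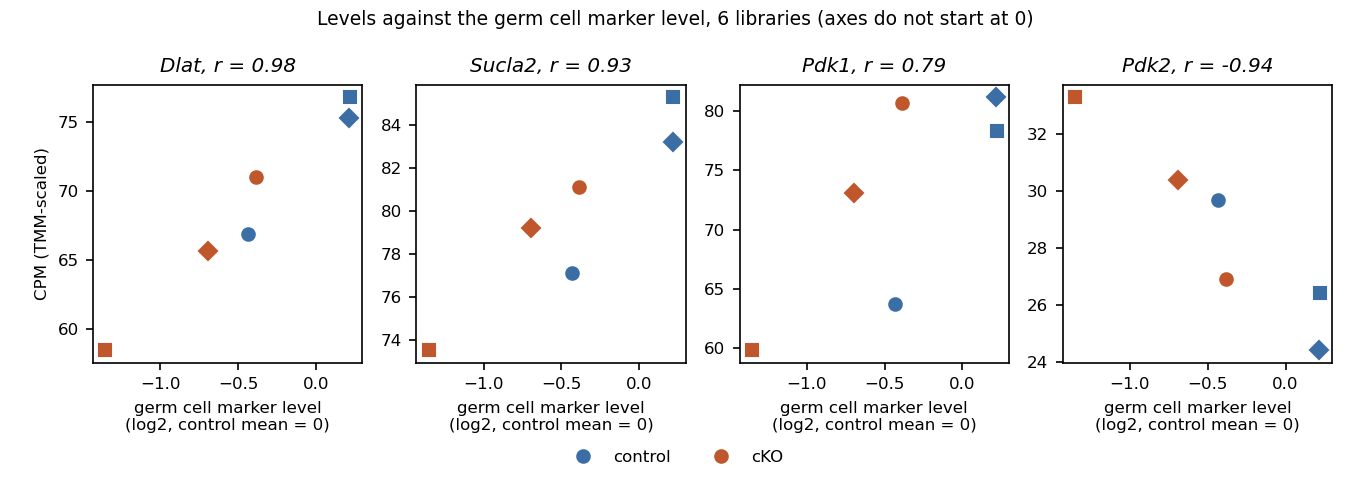
CPM of Dlat, Sucla2, Pdk1 and Pdk2 in each of the 6 libraries against the germ cell marker level (mean log2 CPM of 11 markers, control mean at 0), with circles, squares and diamonds for replicates 1, 2 and 3. Dlat rises along the axis (r = 0.98) and Pdk2 declines (r = -0.94), with control replicate 1 among the cKO libraries, and the vertical axes do not start at 0.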

How the data were processed

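Stranded mRNA libraries from 3 control and 3 cKO pools of E12.5 testes were sequenced as read pairs. The authors mapped the pairs to mm10 with STAR (2.5 in the submitters' processing notes), counted them per RefSeq gene, by strand, with featureCounts (Subread 1.5.0-p1), and deposited raw counts for 24470 genes. Gene positions are those of the deposited table. The members and all gene lists were chosen with earlier results of these data known.

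From the counts, genes were filtered with filterByExpr (minimum count 10), scaled by TMM and tested with edgeR 4.0.16 in R 4.3.3 (quasi-likelihood F-test, Benjamini-Hochberg over 15577 genes, threshold 0.05), with 95% intervals from the fitted standard errors. DESeq2 1.42.0, the study's tool, and limma-voom (limma 3.58.1), other scaling, filters and sample choices were alternatives. The scripts were tested on simulated data. CPM are TMM-scaled, and log2 CPM used a prior count of 2. Exon lengths and transcript sequence came from GENCODE M21, promoters from RefSeq. Every member is named with its log2 fold change. Values by library are given for the member of lowest p in each role, the kinases, phosphatases and pyruvate carrier genes. Around the pathway, the gene of lowest p per role is named.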

Additional observations from a re-analysis of the deposited data

How the results depend on the processing

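No member was called under any alternative tried with edgeR, limma-voom or DESeq2, nor when DESeq2 was rerun with 1 library left out at a time, which was chosen after seeing the data. No gene around the pathway was called either under the same settings, DESeq2 reruns aside. Over all genes, 6 were called, 111 by DESeq2, 3 with the replicate number as a block, and 2 to 8 with 1 library, or control replicate 1 together with cKO replicate 3, left out. Same-numbered samples did not deviate together (correlations of -0.20, -0.27 and -0.13). The labels do not say that a number marks a litter or day, and these correlations cannot exclude it. Members at an unadjusted p below 0.05 were 2 by edgeR, but 1 by limma-voom, 1 with the replicate block and 0 to 5 with libraries left out. They were 0 when control replicate 2 was dropped, 0 when cKO replicate 3 was dropped and 5 when cKO replicate 1 was dropped. The shares of all genes under these settings are not given here, so these counts are not read as a result about the members. Members whose groups did not overlap were 2, but 5 with RLE size factors and 2 to 13 with libraries left out. All genes moved likewise, from 15.6% to 15.9% with RLE size factors and to between 22.8% and 43.1% with libraries left out, since fewer samples must be separated. Of the 31 members, 19 kept the sign of their log2 fold change under all 14 alternatives and 12 did not. With 1 library left out, 27 members moved by over 1.5 times or changed sign, and Pdhb, Ogdh, Suclg1 and Sdhd did neither. Idh3b turned to 0.0009 with DESeq2, 0.0003 with RLE size factors and 0.0006 without a filter. With libraries left out, the log2 fold change ranged from -0.028 to 0.071 for Mpc1, -0.063 to 0.096 for Mpc2, -0.028 to 0.0066 for Pdhx, -0.18 to 0.043 for Pdk1, -0.052 to 0.064 for Pdk3, -0.17 to 0.34 for Pdk4, -0.038 to 0.038 for Pcx, -0.042 to 0.048 for Idh3a, -0.039 to 0.021 for Idh3b, -0.052 to 0.061 for Idh3g, -0.011 to 0.099 for Idh2 and -0.043 to 0.0016 for Dlst. The differences in log2 ratio ranged from -0.20 to 0.021 for Pdk1 to Pdk3, -0.088 to 0.081 for Mpc1 to Mpc2 (-0.010 without control replicate 1 and cKO replicate 3), -0.045 to 0.080 for Idh2 to Idh3a and -0.073 to 0.092 for Mdh1 to Mdh2, and from -0.66 to -0.22 for Pdp1 to Pdp2. Members with r of at least 0.9 with the germ cell level were 3, and 6 from deviations within groups (7.44% of all genes). With 1 library left out they were 2 to 6 (4.87% to 9.93% of all genes). They were 6 when control replicate 3 (8.03% of all genes) or cKO replicate 3 (8.52% of all genes) was dropped. These alternatives were chosen after seeing the data. The cause of these moves was not tested. With 3 samples a group, differences of any size inside the intervals given remain compatible with the data.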

Other observations

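Among the genes around the pathway, several also moved with the germ cell marker level over the 6 libraries, chosen here after their values were seen. Of the 30 tested, Gls2, Ogdhl and Slc25a13 had r of at least 0.9, where 6.35% of all genes did. Pck2 and Slc25a10 had r of at most -0.9, where 1.74% did. With so few genes past either bound, these are not read as a difference from all genes. Slc25a13 had r = 0.96 and rho = 0.71 (exact permutation p = 0.0167 and 0.136, adjusted over all genes 0.19 and 0.449), with r of 0.86 without the libraries farthest from the median. Gls2 had r = 0.97 and rho = 0.94, and Ogdhl r = 0.95 and rho = 0.94 (exact permutation p = 0.00278 and 0.0167 for each, adjusted over all genes 0.111 and 0.217), with r of 0.92 and 0.97 without the libraries farthest from the median.

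The opposite direction was seen for Pck2, the carboxykinase of mitochondria, and Slc25a10, a dicarboxylate carrier. Pck2 was at 54.5, 49.4 and 49.1 CPM in controls and at 51.9, 58.1 and 55.6 CPM in cKO samples, with r = -0.97 and rho = -0.94 (exact permutation p = 0.00278 and 0.0167, adjusted 0.111 and 0.217). Slc25a10 was at 46.1, 44.2 and 43.9 CPM in controls and at 46.9, 51.8 and 48.6 CPM in cKO samples, with r = -0.99 and rho = -0.89 (exact permutation p = 0.00556 and 0.0333, adjusted 0.141 and 0.254). Without the farthest libraries, r was -0.95 for Pck2 and -0.96 for Slc25a10. None of these relations passed at 0.05 after adjustment, but neither did the smallest p that 6 libraries allow.

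Got2, the mitochondrial aspartate aminotransferase of the malate-aspartate shuttle, was at 137.7, 132.1 and 131.1 CPM in controls and at 141.1, 143.1 and 147.0 CPM in cKO samples, also chosen after its values were seen. Every cKO value of Got2 and of Slc25a10 was above every control value, with log2 fold changes of 0.11 (edgeR FDR = 0.450) and 0.14 (edgeR FDR = 0.454), and 8.42% of all genes tested separated that way. Lipt1, a lipoyl transferase, and Me3, a malic enzyme at 5 to 15 counts per library, separated the other way, with log2 fold changes of -0.21 (edgeR FDR = 0.576) and -0.66 (edgeR FDR = 0.577), where 7.17% of all genes did.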
